A study of Mus musculus with 24 samples.

Results

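Cdx2 binding was examined at 9 mouse genes of the NAIP/NLRC4 and caspase-1 inflammasome pathway: Naip1, Naip2, Naip5, Naip6, Nlrc4, Casp1, Casp4, Gsdmd and Il18. A site belonged to the set when the summit of a Cdx2 peak lay in the body of one of these genes or within 50 kb to either side, on the mm10 genome with GENCODE vM21 gene models. The rule found 308 of the 206283 peaks on chromosomes 1 to 19, X and Y. Merged over libraries wherever they overlapped by at least 1 bp, they made 58 sites of 61454. The genes were chosen by the called peaks and fold enrichments of these same lists, so the number, the position and the strength of the sites are given as a description. The comparisons between groups use the same calls and folds and are not independent of that choice.

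Cdx2 was mapped in organoids grown from the colon of 3 mice. The animals were female, 8 weeks old, and carried a heterozygous Cre-inducible BrafV600E allele together with a heterozygous tdTomato reporter. All 4 groups carried both alleles, and the sources used here name no Cre treatment for these libraries. Proximal organoids came from the first 1 cm of the colon and distal organoids from the last 1 cm of the descending colon. Culture lasted 4 months in a medium with Wnt3a, EGF, Noggin and R-spondin, called WENR-plus. The proximal WENR-plus and distal WENR-plus groups stayed in that medium. The proximal WENR-minus and distal WENR-minus groups spent 2 days in it after plating, followed by 3 days in which the 4 factors were withheld. Each group had 3 libraries, numbered 1 to 3, and the labels do not say whether a number marks the same mouse across groups, so p-values measure the spread between these libraries. The lists hold no expression values, so the labelled origin of the organoids was not checked against marker genes.

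Cdx2, a homeobox protein, is a regulator of genes in the epithelium of the gut. NAIP proteins are receptors in the cytosol that bind bacterial flagellin (Naip5 and Naip6) or parts of the type III secretion apparatus (Naip1 and Naip2), and a bound NAIP assembles with Nlrc4 into an inflammasome. The complex recruits caspase-1, the product of Casp1, while the product of Casp4, known in the mouse as caspase-11, senses lipopolysaccharide in the cytosol. Both caspases cleave gasdermin D, the product of Gsdmd, which then forms pores in the cell membrane, and caspase-1 processes interleukin-18, which is released through them. In the gut epithelium this pathway is known for expelling infected cells. The 4 Naip genes lie side by side on mouse chromosome 13 and arose by duplication, so their sequences are close to each other.

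Of the 58 sites, 9 were called in all 12 libraries, and their sequences are shown first because the values of the set turn on them. Each line gives the median summit with 50 bp to either side, plus strand, read from GRCm38. Capitals mark the Cdx2 motif (TTTATGA or TTTATTG, or either with its last letter A or G exchanged) or TTTACGA on either strand, and the second was added after the sequences had been read. The Naip2 site called in 10 libraries and the strongest Gsdmd site follow.
Casp1, 12.3 kb upstream (chr9:5286164-5286264): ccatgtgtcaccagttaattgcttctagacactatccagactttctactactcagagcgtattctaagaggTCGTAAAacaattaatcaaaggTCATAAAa
Naip6, 10.6 kb upstream (chr13:100328228-100328328): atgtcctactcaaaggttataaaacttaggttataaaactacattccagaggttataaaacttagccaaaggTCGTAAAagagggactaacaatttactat
Naip5, 10.9 kb upstream (chr13:100257157-100257257): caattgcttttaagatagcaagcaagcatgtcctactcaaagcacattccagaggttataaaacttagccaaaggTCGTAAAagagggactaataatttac
Naip5, 9.41 kb upstream (chr13:100255679-100255779): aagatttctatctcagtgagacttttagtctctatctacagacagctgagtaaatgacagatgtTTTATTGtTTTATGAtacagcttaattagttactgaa
Naip1, intron (chr13:100449636-100449736): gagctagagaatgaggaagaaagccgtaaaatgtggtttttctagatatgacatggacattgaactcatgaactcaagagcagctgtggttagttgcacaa
Naip1, beyond the 3′ end (chr13:100398708-100398808): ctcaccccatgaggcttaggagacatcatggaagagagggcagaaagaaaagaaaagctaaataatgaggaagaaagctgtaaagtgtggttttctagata
Casp1, 1.57 kb upstream (chr9:5296901-5297001): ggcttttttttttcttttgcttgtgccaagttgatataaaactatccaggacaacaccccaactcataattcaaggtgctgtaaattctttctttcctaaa
Casp4, intron (chr9:5332606-5332706): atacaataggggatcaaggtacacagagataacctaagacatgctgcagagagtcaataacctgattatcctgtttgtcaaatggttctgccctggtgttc
Il18, intron (chr9:50561836-50561936): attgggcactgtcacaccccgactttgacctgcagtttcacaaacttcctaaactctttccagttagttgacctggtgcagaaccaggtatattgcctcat
Naip2, intron (chr13:100176336-100176436): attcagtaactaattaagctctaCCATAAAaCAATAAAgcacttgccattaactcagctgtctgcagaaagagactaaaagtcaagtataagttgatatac
Gsdmd, 7.98 kb upstream (chr15:75854299-75854399): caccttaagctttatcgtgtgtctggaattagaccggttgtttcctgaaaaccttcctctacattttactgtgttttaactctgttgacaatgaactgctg

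The Naip cluster held 28 of the 58 sites, the Casp1/Casp4 locus 14, Gsdmd 7, Il18 6 and Nlrc4 3. By position 27 sites lay in introns, 2 in exons and 29 between genes. Only 13 sites were within 3 kb of any annotated start site of a member, the distance the authors used for promoters. The share called in all 12 libraries was 15.5% (9 of 58), against 3.38% of all 61454 merged sites. Sites called in 1 library alone made up 34.5% of the set and 42.2% of all sites. The median number of libraries was 4 in the set and 2 over all sites. A site called in all 12 libraries lay in the window of 6 of the 9 genes (Naip1, Naip5, Naip6, Casp1, Casp4 and Il18), against 12.9% of the 21938 protein-coding genes with windows made in the same way. Windows overlap, so Casp1 and Casp4 share 3 such sites, and Naip5 and Naip6 share 2.

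**Figure D1:**
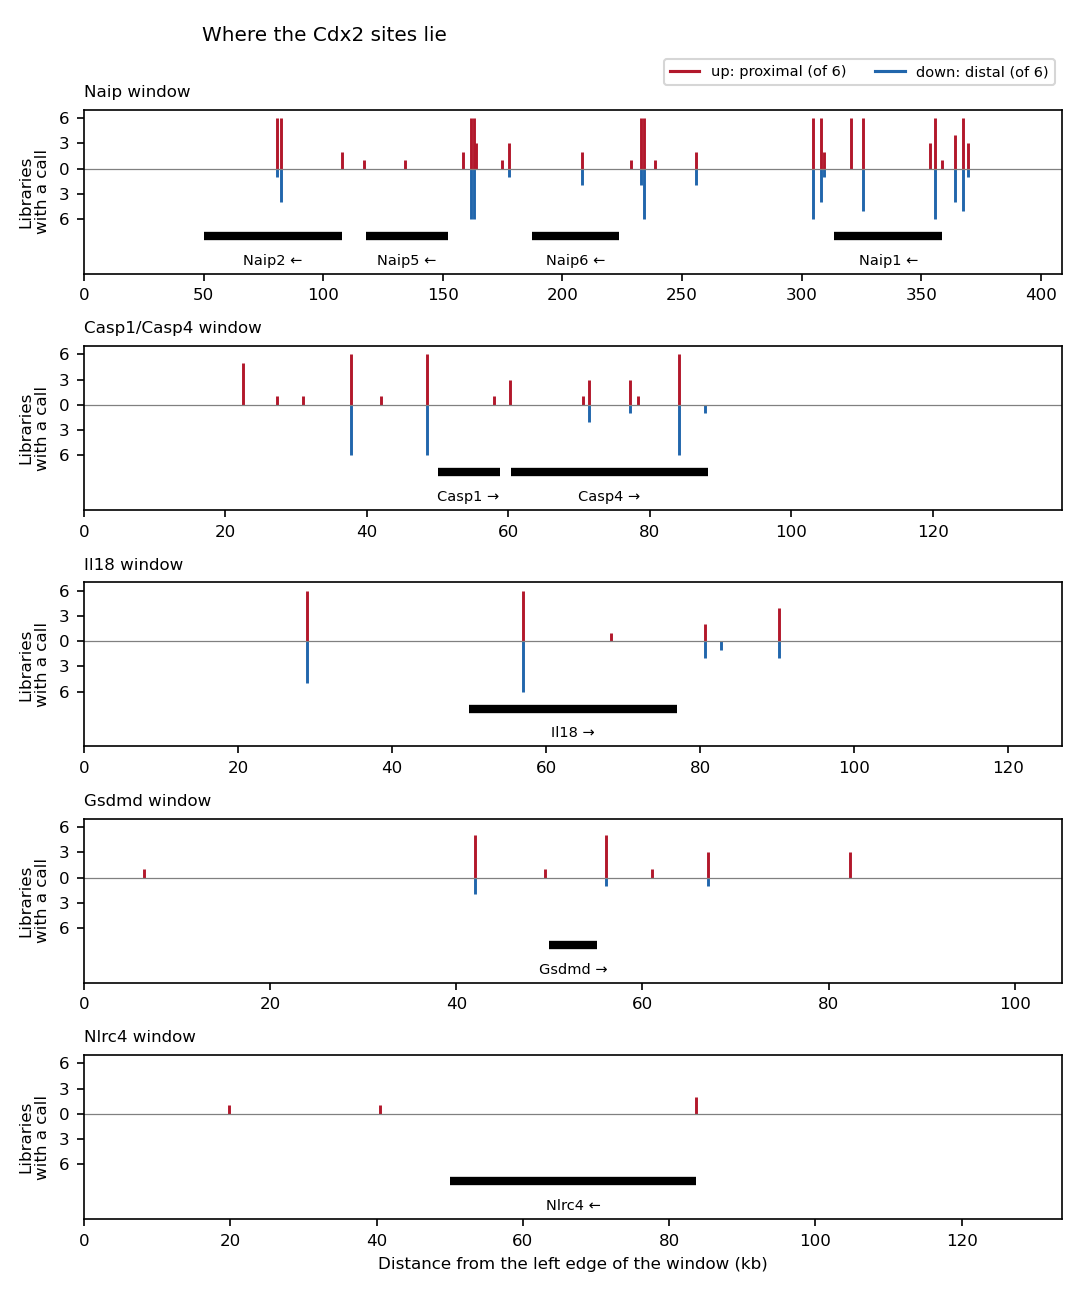
Position of the 58 sites in the 5 windows. Each line is a site, drawn upwards for the number of proximal libraries (of 6) and downwards for the number of distal libraries (of 6) that called it, against the distance in kb from the left edge of the window. Black bars are gene bodies and arrows give their direction of transcription. Sites called in all 12 libraries stand upstream of Naip5, Naip6 and Casp1, on either side of most of Naip1, and in Casp4 and Il18, while Nlrc4 and Gsdmd have none.

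Values are given below as the fold enrichment of a peak over the matched input and the percentile of that fold among all peaks of the same list, both from the deposited lists. The percentile depends on the list. The median fold was 5.02 in the longest list (42192 peaks) and 6.57 in the shortest (5608 peaks). The same fold can thus rank higher in a longer list. Among the sensors, Naip6 had the strongest site, 10.6 kb upstream of its start at chr13:100327597-100329279. Its fold enrichment was 47.5, 71.5 and 37.6 in the proximal WENR-plus libraries and 50.2, 46.7 and 31.5 in the proximal WENR-minus libraries. It was 33.9, 42.6 and 29.9 in the distal WENR-plus libraries and 24.9, 27.998 and 28.3 in the distal WENR-minus libraries. The groups overlapped, proximal WENR-plus replicate 2 was the highest, and the lowest percentile in any list was 99.5. The site was thus in the top 1% of every list.

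Naip5 had a pair of sites upstream of its only annotated start. The nearer one, 9.41 kb away at chr13:100255195-100256533, had folds of 34.9, 37.3 and 21.5 in proximal WENR-plus and of 32.4, 27.6 and 13.4 in proximal WENR-minus libraries. Its folds were 19.0, 18.7 and 10.6 in distal WENR-plus and 11.4, 7.196 and 10.2 in distal WENR-minus libraries. In fold, the 3 proximal libraries exceeded the 3 distal ones in each medium without overlap. Folds were higher in proximal libraries at most shared sites, too. Over the 2079 sites called in every library, the median proximal minus distal log2 difference was 0.46 in WENR-plus medium. In WENR-minus medium it was 0.30. The percentile of this Naip5 site ran from 73.8 to 99.8, and by percentile, which depends on list length, the groups overlapped in both media. In WENR-plus medium the lowest proximal percentile was 97.7 and the highest distal one 98.96. In WENR-minus medium they were 92.9 and 95.2. The farther site, 10.9 kb away at chr13:100256720-100257538, was weaker, with a median fold of 10.7 and a range of 6.18 to 22.3. Both sites lay between genes. The site nearest the Naip5 start was 6.22 kb away, called in 2 proximal libraries only, and the one nearest the Naip6 start was 5.05 kb away and called in 1 library.

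Naip2 had no site in all 12 libraries. Its best site, 25.7 kb from the 5′ end of the gene in an intron at chr13:100176090-100176707, was called in all 6 proximal and 4 distal libraries, with folds of 5.52 to 18.5. A neighbour 1.45 kb away at chr13:100174574-100175271 was called in all 6 proximal libraries with folds of 9.36, 8.06, 9.46, 9.53, 10.95 and 5.13. It was called in 1 distal library, distal WENR-plus replicate 1, with a fold of 3.60 at percentile 1.71 of that list. The distance within these pairs was similar in the 3 genes: 1.45 kb in Naip2, 1.48 kb at Naip5 and 1.56 kb at Naip6, where a site called in 6 proximal and 2 distal libraries stood beside the strong one. The pairs were not alike in sequence. In the search described below, the Naip2 sites matched each other and the nearer Naip5 site. Neither matched the farther Naip5 site or the strong Naip6 site, so the Naip2 pair is no counterpart of the other pairs.

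Naip1 had 11 sites in its window, of which 2 were called in all 12 libraries. One lay in an intron, 3.18 kb inside the gene from its 5′ end (chr13:100449409-100450210), with a median fold of 9.43 and folds of 4.53 to 12.9. The other lay 9.01 kb beyond the 3′ end (chr13:100398331-100399411), with a median fold of 9.88 and folds of 6.13 to 13.9. A further 3 sites near Naip1 were called in 10 or 11 libraries, with folds of 4.95 to 10.1 (5.75 kb beyond the 3′ end), 4.95 to 11.1 (in an intron, 33.2 kb from the 5′ end) and 4.93 to 9.94 (8.63 kb upstream, in an intron of Gtf2h2). An intronic site 38.3 kb from the 5′ end (chr13:100414442-100414915) was called in all 6 proximal libraries, with folds of 5.41, 6.27, 5.48, 6.45, 5.57 and 4.81, and in 0 distal ones. At the Naip1 start itself a site 135 bp away was called in 1 library, and at the Naip2 start a site 260 bp away was called in 2.

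Nlrc4, the adaptor that binds the NAIP sensors, had the thinnest coverage of the 9 genes. One of its 3 sites lay 13 bp from a start site in an exon (chr17:74459007-74459383). It was called in proximal WENR-plus replicate 1 with a fold of 4.75 (percentile 36.2) and in replicate 3 with a fold of 4.73 (percentile 18.7). The other sites were called in 1 proximal library each, and 0 distal libraries called any of the 3.

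The Casp1/Casp4 locus had the strongest site of the set, 12.3 kb upstream of Casp1 between genes at chr9:5285591-5287230. Its folds were 61.5, 92.5 and 30.9 in proximal WENR-plus and 72.8, 71.1 and 33.7 in proximal WENR-minus libraries. They were 45.4, 30.1 and 23.5 in distal WENR-plus and 64.6, 46.1 and 30.4 in distal WENR-minus libraries. Replicate 3 was the lowest of its group in all 4 groups, the groups overlapped, and the lowest percentile was 99.3. The summits of the 12 libraries fell within 67 bp.

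Closer to Casp1, the site 1.57 kb upstream (chr9:5296502-5297834) was the only one within promoter distance of a member that all 12 libraries called, with folds of 5.79 to 15.3 and a median of 8.89. Casp4 had a site in all 12 libraries in an intron, 9.31 kb downstream of its nearest annotated start (chr9:5332339-5332960), with folds of 5.10 to 12.7. At the Casp4 start a site 78 bp away was called in 3 proximal libraries, with folds of 5.07, 6.27 and 4.57, and in 0 distal ones.

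Gsdmd, the pore-forming substrate, had 7 sites and none in more than 7 libraries. Its strongest, 7.98 kb upstream between genes (chr15:75854101-75854515), was called in 5 proximal and 2 distal libraries with folds of 4.03 to 8.88. The site nearest its start, 482 bp away, was called in 1 library. None of the Gsdmd sites lay inside the gene body.

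Il18 had a site in all 12 libraries in an intron, 7.06 kb inside the gene from its 5′ end (chr9:50561510-50562541). That point is also 561 bp from a start site of Tex12, a neighbouring gene, so the site cannot be assigned to one of them from its position. In proximal libraries its folds were 9.83, 7.33 and 8.61 with the niche factors and 10.2, 9.55 and 8.89 without them. In distal libraries they were 8.38, 12.9 and 6.18 with the factors and 12.9, 12.2 and 10.5 without them. All 3 distal WENR-minus folds were above those of both proximal groups. By percentile they were not: distal WENR-minus replicate 3 was at 90.1. Replicate 1 was at 90.7 in proximal WENR-plus and at 91.0 in proximal WENR-minus. These lists held 7904, 32033 and 27921 peaks in this order, so their percentiles are not on the same scale. A second Il18 site, 21.02 kb upstream in an intron of Bco2 (chr9:50533490-50535079), was called in 11 libraries, all but distal WENR-plus replicate 1, with folds of 5.55 to 10.3. The site nearest an Il18 start, 1.97 kb away, was called in 1 library.

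**Figure D2:**
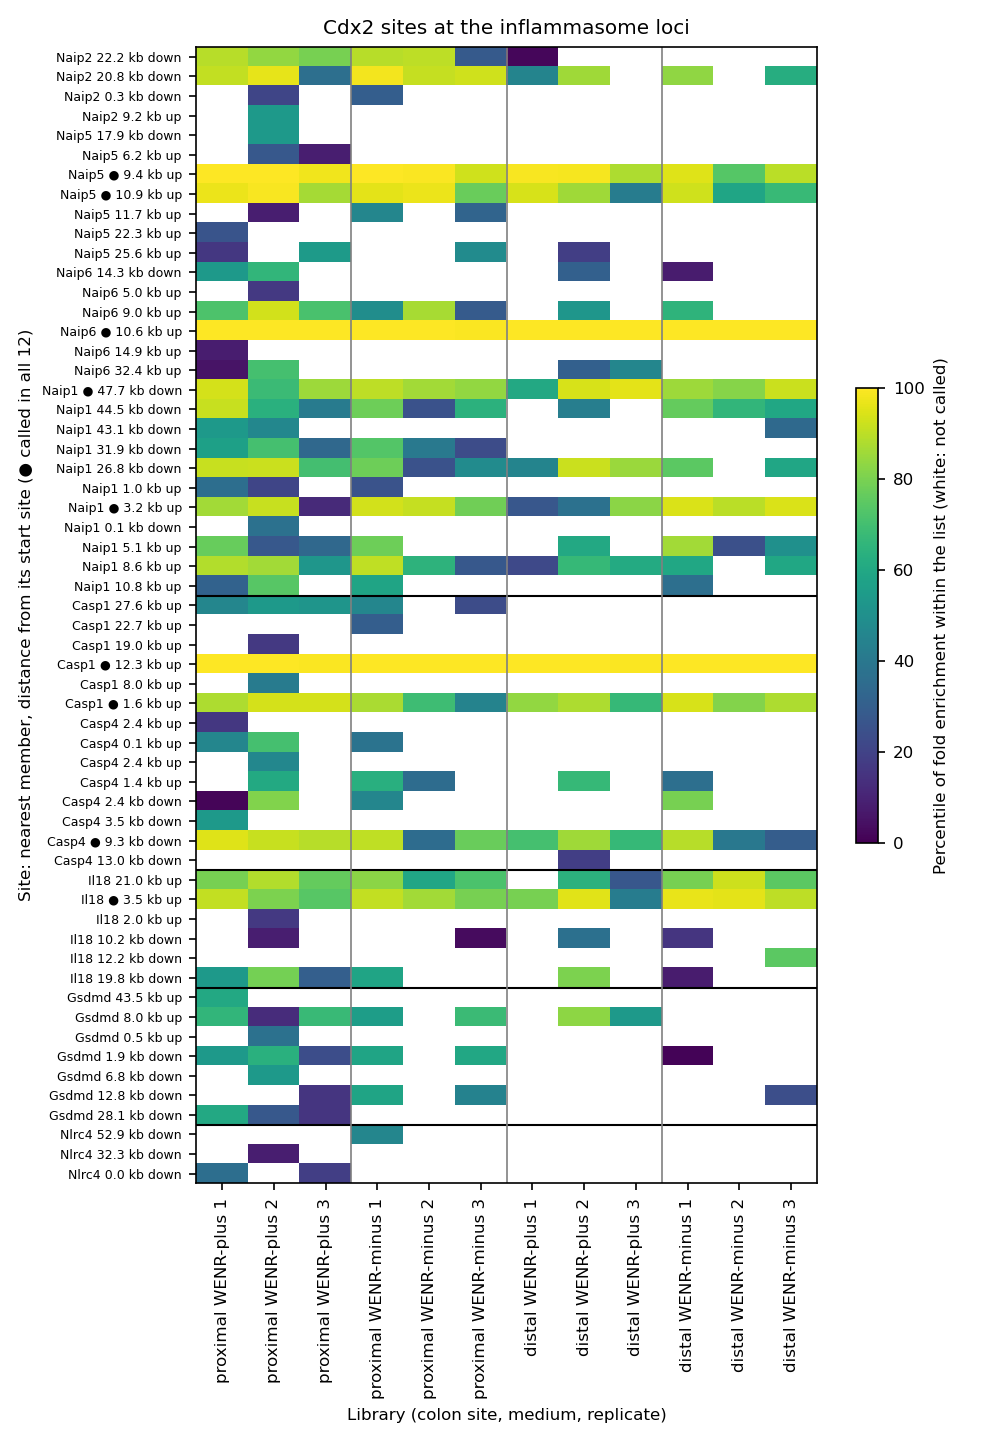
Percentile of fold enrichment within the list of each library for the 58 sites (rows, ordered along the chromosome within the Naip, Casp1/Casp4, Il18, Gsdmd and Nlrc4 windows) in the 12 libraries (columns). White means that the library did not call the site, and a dot marks the 9 sites called in all 12. The sites upstream of Naip6 and Casp1 are above the 99th percentile in every column, and most white cells are in the distal columns.

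The first comparison asked whether the sites differed between colon sites. More libraries were proximal than distal at 43 of the 58 sites, fewer at 2, and the numbers were equal at 13. This moved with the length of the lists, which held 11409 to 42192 peaks in proximal and 5608 to 21040 in distal libraries. In WENR-plus medium a proximal library held 36.7 ± 9.50 sites and a distal one 17.0 ± 6.08 (mean ± SD, n = 3). In WENR-minus medium the values were 24.7 ± 7.02 for proximal and 17.7 ± 5.51 for distal libraries (n = 3). With each list reduced to its 5608 peaks of smallest p-value, the libraries held 11 to 15 sites in proximal and 11 to 17 in distal organoids. Of the 20 sites called in 1 library, 11 came from proximal WENR-plus replicate 2, the longest list.

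**Figure D3:**
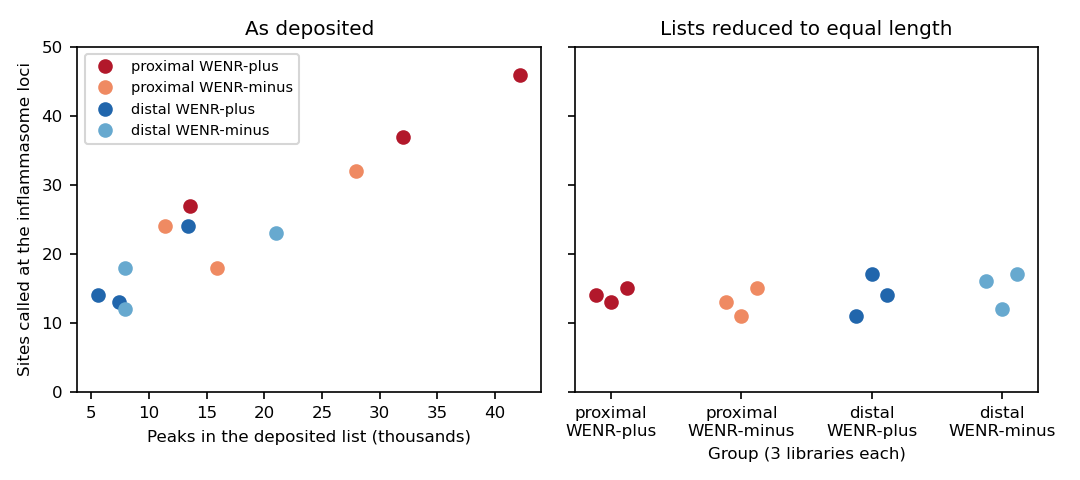
Number of sites called at the inflammasome loci in each of the 12 libraries. Left, against the number of peaks in the deposited list, where the count goes from 12 to 46. Right, by group after every list was reduced to 5608 peaks, where the 4 groups overlap between 11 and 17 sites.

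A two-sided Fisher's exact test of the number of proximal and distal libraries with a call was made for every site called in at least 2 libraries, 35518 in all and 38 of the set. None passed after Benjamini-Hochberg adjustment over all of them, and the lowest adjusted p was 0.114. At an unadjusted p under 0.05, 3 sites of the set (7.89% of 38) were called more often in proximal libraries, against 4.96% of all sites tested, and 0 were called more often in distal libraries, against 0.282%. The 3 were the Naip1 site 38.3 kb from the 5′ end (6 and 0 libraries, exact p = 0.00216, the smallest that 6 against 6 libraries allow), the Naip2 site 27.2 kb from the 5′ end (6 and 1, exact p = 0.0152) and a site 27.6 kb upstream of Casp1 (5 and 0, exact p = 0.0152). The organoids of both media came from the same 3 mice, so the 6 libraries of a colon site are not 6 animals and these p-values are too small. Even with 3 separate animals against 3, the smallest exact p would be 0.1. Here both colon sites came from the same 3 mice, and the test did not use that pairing. One site of the 58 was called in all 6 proximal and in 0 distal libraries, where the share over all sites was 1.04%. The reverse was seen at 0 of the 58 and at 0.0553% of all sites. In the lists of equal length the Naip2 site was called in 6 proximal and 0 distal libraries, while the Naip1 site and the Casp1 site were called in 0 of the 12.

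The strength of binding was compared at the 2079 sites that every library called, of which 9 belonged to the set. The log2 of the fold enrichment, centred on the median of these sites in each library, was fitted with limma in 1 model of the 4 groups, with adjustment over the 2079 sites. In WENR-plus medium 5.82% of all 2079 sites passed an adjusted p of 0.05 between proximal and distal organoids, and 0 of the 9 did. In WENR-minus medium 3.03% passed, and again 0 of the 9. The counts over all sites changed with the library left out. The 121 calls in WENR-plus medium fell to 11 without distal WENR-plus replicate 3, to 48 and 55 without replicates 2 and 1 of that group, and to 23 and 33 without proximal WENR-plus replicates 2 and 1. The 63 calls in WENR-minus medium fell to 16 and 30 without proximal WENR-minus replicates 2 and 1 and to 27 without distal WENR-minus replicate 2. Without proximal WENR-plus replicate 3 the counts rose to 134 in WENR-plus and 82 in WENR-minus medium. Without proximal WENR-minus replicate 3 they were 138 and 63. Of the calls 66 of 121 and 46 of 63 were higher in proximal organoids, against 362 of 366 and 182 of 186 with no centring of the libraries, which moved the median log2 difference of all sites to 0.46 in WENR-plus and 0.30 in WENR-minus medium. The unadjusted p was under 0.05 at 2 of the 9 in WENR-plus and at 3 of the 9 in WENR-minus medium, against 21.5% and 19.1% of all sites tested.

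The nearer Naip5 site came closest. In WENR-minus medium its centred log2 fold was 1.11 ± 0.60 in proximal and 0.12 ± 0.23 in distal libraries (SD, n = 3), a difference of 0.98 (SE 0.31, limma adjusted p = 0.0877). In WENR-plus medium the difference was 0.49 (SE 0.31, adjusted p = 0.394). The call in WENR-minus medium rested on the settings: without proximal WENR-minus replicate 3, the lowest of its group, the adjusted p was 0.0360, with no centring of the libraries it was 0.0273, and with the replicate number as a block it was 0.00668, at the same difference of 0.98. The strong Naip6 site differed by 0.34 (SE 0.24, adjusted p = 0.486) and the strong Casp1 site by 0.02 (SE 0.39, adjusted p = 0.991) in WENR-minus medium. Over the alternatives, some on other scales, the Naip6 difference ran from -0.00034 to 0.64 and the Casp1 difference from -0.28 to 0.34.

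Sites with the opposite sign were found in the same contrast. The Casp1 site 1.57 kb upstream had a proximal minus distal log2 difference of -0.69 (SE 0.23, adjusted p = 0.103), and the Il18 intron site one of -0.61 (SE 0.24, adjusted p = 0.162). In WENR-plus medium the Il18 site had a log2 difference of -0.51 (SE 0.24, adjusted p = 0.221), and the Naip1 site beyond the 3′ end had -0.67 (SE 0.29, adjusted p = 0.195). Normal scores of the within-list percentile are in other units and were not centred. On them the Il18 site had a difference of 0.17 in WENR-plus medium, below the median of 0.57 over all 2079 sites. Over the 9 sites the median log2 difference was 0.04 in WENR-plus and -0.01 in WENR-minus medium, beside medians of -0.02 and -0.00048 over all 2079 sites.

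**Figure D4:**
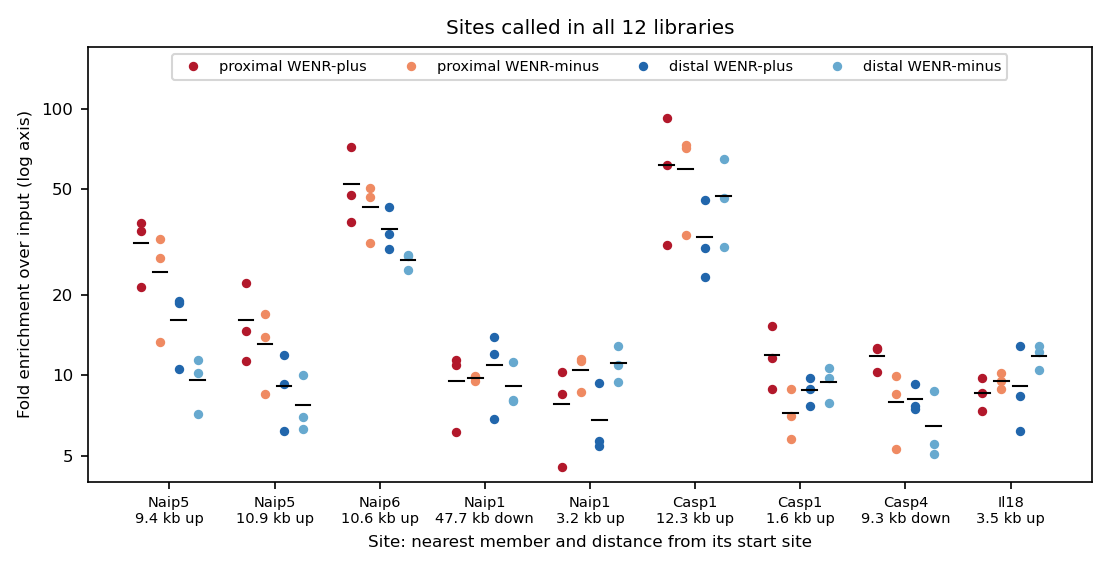
Fold enrichment over input (log axis) at the 9 sites called in all 12 libraries, each named by the nearest member and the distance from its nearest annotated start site. Points are libraries, coloured by group, and black lines are means of 3. The Naip5 site 9.4 kb upstream shows the 3 proximal libraries above the 3 distal ones in fold in both media, though not in percentile. The folds drawn are not centred, and the median log2 difference over all 2079 sites was then 0.46 in WENR-plus and 0.30 in WENR-minus medium, higher in proximal libraries. The Casp1 site 12.3 kb upstream reaches 92.5.

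Withdrawal of the niche factors was the second comparison. WENR-minus against WENR-plus gave 0 of the 9 sites with an adjusted p under 0.05 in proximal organoids (0% of all 2079) and 0 of the 9 in distal organoids (0% of all). At an unadjusted p under 0.05 there were 2 of the 9 in each, beside 8.90% and 10.8% of all sites tested. The Naip1 intron site had the largest shift, with a WENR-minus minus WENR-plus log2 difference of 0.72 in proximal (SE 0.29, adjusted p = 0.453) and of 0.77 in distal organoids (SE 0.29, adjusted p = 0.340). In distal organoids the nearer Naip5 site had a difference of -0.68 (SE 0.31, adjusted p = 0.430). The difference of the colon-site effect between media passed at 0 of the 9 and at 0% of all sites, with 0 of the 9 at an unadjusted p under 0.05 and a lowest adjusted p of 0.998. The standard error of this difference had a median of 0.41 on the log2 scale over the 9 sites. The largest difference, -0.63 (SE 0.33) at the Casp1 site 1.57 kb upstream, also had a limma adjusted p of 0.998. Changes of more than 1 standard error could therefore go uncalled.

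The Cdx2 motif was looked for within 50 bp of the median summit of each site. It was present at 26 of the 58 sites (44.8%, 95% Wilson interval 32.7 to 57.5%, counting error only), against 60.4% of all 61454 sites and 11.2% of windows placed 1000 bp to either side of the peaks. Of the 9 sites called in all libraries, 2 had it, the nearer Naip5 site with 2 copies and the strong Casp1 site with 1. Among all 2079 sites called in every library the share was 73.1%. Within 100 bp of the summit the shares were 56.9% of the set, 44.4% of the 9 and 83.7% of the 2079. The count for the 9 depended on the summit used. Within 50 bp of each library's own summit, the Il18 intron site had the motif in 10 of 12 libraries. The Naip1 site beyond the 3′ end had it in 4 and the Casp4 intron site in 1. The strong Naip6, farther Naip5, Naip1 intron and nearer Casp1 sites had it in 0. This was not counted for the 2079 sites.

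The strong Naip6 site and the farther Naip5 site carried TCGTAAA and no motif, and the strong Casp1 site carried it beside the motif. TCGTAAA is the reverse complement of TTTACGA, which differs from the motif TTTATGA at 1 letter. TTTACGA was present on either strand at 3 of the 9 sites, against 1.44% of the 2079 sites called in every library, 1.62% of all sites and 0.153% and 0.152% of the windows to either side of the peaks. The search was made because these sequences had been seen, so the 3 of 9 is no support for it.

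These sites also resembled each other. In a blastn search of the genome with each median summit and 150 bp to either side as the query, the strong Naip6 site matched the farther Naip5 site at 89.0% identity over its whole length, and the latter matched the strong Casp1 site on another chromosome at 75.5% identity over 86.4% of its length. The stretch around TCGTAAA differed between the Naip6 and Naip5 sites by 1 substitution in 31 bp. The aligned stretch of the Casp1 site differed from Naip6 by 7 substitutions and 2 gap positions and held the motif in place of TCGTAAA, which stands just before this stretch. Capitals mark the same letters as above.
Naip6 (chr13:100328288-100328318, plus strand): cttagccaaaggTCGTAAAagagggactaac
Naip5 (chr13:100257220-100257250, plus strand): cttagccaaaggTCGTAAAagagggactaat
Casp1 (chr9:5286243-5286275, plus strand): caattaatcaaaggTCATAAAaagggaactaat

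A second family was formed by the nearer Naip5 site, its counterpart at Naip6 and both Naip2 intron sites. The Naip5 sequence matched the Naip6 counterpart at 97.3%, the weaker Naip2 site at 97.0% and the better Naip2 site at 81.7% identity, each over its whole length. The aligned stretches around the motif are shown because the 4 sites were called in different numbers of libraries: all 12 at Naip5, 10 at the better Naip2 site, 8 at Naip6 and 7 at the weaker Naip2 site. The Naip5 stretch and the better Naip2 stretch each held 2 motif matches, and the other ones held 1.
Naip5 (chr13:100255731-100255769, plus strand): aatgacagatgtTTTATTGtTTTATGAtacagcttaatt
Naip2, 10 libraries (chr13:100176347-100176385, minus strand): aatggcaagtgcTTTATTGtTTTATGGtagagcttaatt
Naip6 (chr13:100326783-100326821, plus strand): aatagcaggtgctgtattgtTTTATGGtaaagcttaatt
Naip2, 7 libraries (chr13:100174885-100174923, minus strand): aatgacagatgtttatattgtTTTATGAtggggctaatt

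Both families belong to sequence found many times in the mouse genome. Matches over at least 80% of the query numbered 1236 for the strong Casp1 site, 553 for the farther Naip5 site, 179 for the strong Naip6 site and 618 for the nearer Naip5 site, spread over 21 chromosomes each. A Cdx2 site was called in at least 1 library at 83.0% of the matches of the farther Naip5 site, at 82.7% for the strong Naip6 site and at 52.1% for the strong Casp1 site. All 12 libraries called 116 (20.98%), 41 (22.9%) and 156 (12.6%) of them. For the nearer Naip5 site, its Naip6 counterpart and both Naip2 sites 35.1% to 39.5% of the matches held a called site, and at Naip5 2.10% held one called in all libraries. Of the other 8 sites of the set with 30 or more matches, 6 had shares between 0.377% and 3.11%, among them the Casp4 intron site with 1.85% of 108 matches. The remaining 2 were a Naip5 site in 1 library (19.1% of 47 matches) and the Naip1 site 38.3 kb from the 5′ end (23.7% of 38).

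**Figure D5:**
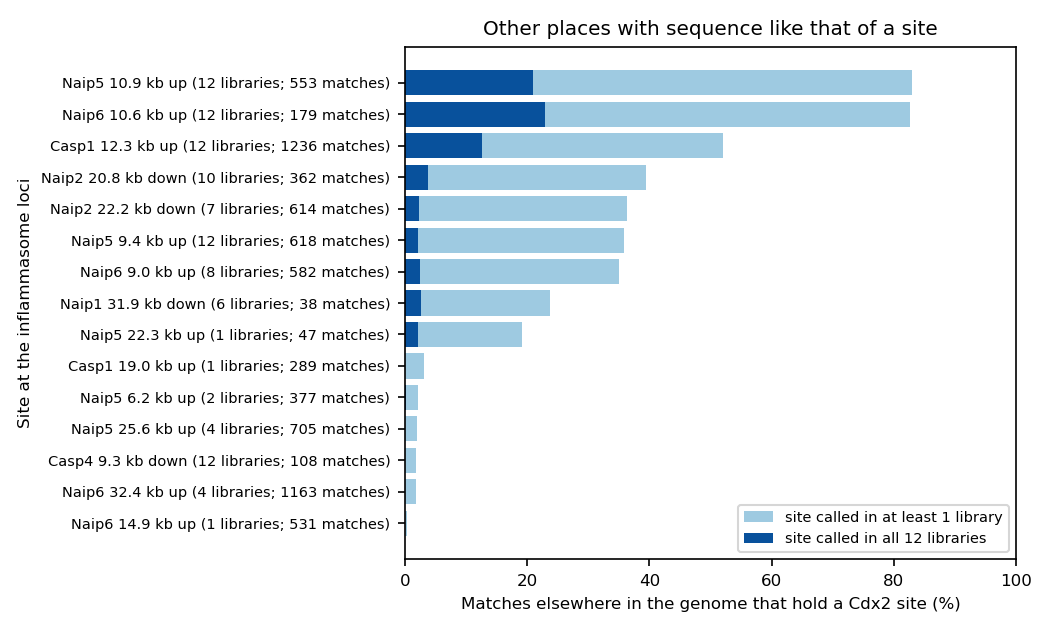
Share of the other matches in the genome (blastn, at least 80% of the query) that hold the summit of a called Cdx2 site, for the 15 sites of the set with 30 or more matches. Pale bars count sites called in at least 1 library and dark bars sites called in all 12. The farther Naip5, strong Naip6 and strong Casp1 sites stand at 83.0, 82.7 and 52.1%, and the lowest bar at 0.377%.

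Of the 58 sites, 28 had another match and 15 had one of at least 95% identity, all 15 in the Naip cluster. There, reads from one place can be aligned to another, and the peak lists do not show how such reads were placed. The nearer Naip5 site had 110 other matches of at least 95% identity, its Naip6 counterpart 56 and the weaker Naip2 site 73, so their values are less certain than the others. The strong Naip6, strong Casp1 and farther Naip5 sites had 0 such matches. The Naip1 sites in the intron and beyond the 3′ end matched each other at 91.4% and had no other match, and both were called in all 12 libraries. The Casp1 site 1.57 kb upstream and the Il18 intron site had no match elsewhere.

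Other genes of the pathway were taken from 3 lists and given the same 50 kb windows. Of the sensors and adaptors, 12 of 13 had a site and 3 had one in all 12 libraries: the pseudogene Naip3, whose window overlaps those of the members, Nek7, a kinase that binds NLRP3, and Nlrp6, a sensor expressed in gut epithelium. Nlrp3 itself had none, and Pycard, the adaptor ASC, had 2 sites with at most 11 libraries. Of the caspases and pore-forming proteins, 12 of 13 had a site and 3 had one in all 12 libraries. They were Casp12, whose window overlaps that of Casp4, and the gasdermins Gsdmc3 and Gsdmc4. The windows of these gasdermins overlap each other, so they may share that site. Of the IL-1 family cytokines and receptors, all 11 had a site and 1 had one in all 12 libraries, the receptor gene Il1r1. Il1b, the other main substrate of caspase-1, had 2 sites in at most 3 libraries. Among all protein-coding genes 84.5% had a site and 12.9% had one in all 12 libraries, and the median number was 2. In the 3 lists, in this order, the medians were 3, 5 and 2 sites.

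Downstream of Il18 the last site inside the 50 kb window lay 13.2 kb from the gene and was called in 6 libraries. The first outside, 53.9 kb from the gene, was called in all 12 at a median percentile of 73.6. At the Naip cluster the outermost sites inside were called in 7 and 4 libraries and the first outside in 1 and 6. At the other 3 loci the first sites outside were called in 1 to 3 libraries.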

How the data were processed

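Cdx2 peaks were taken from 12 deposited lists, 1 per library, and 12 input libraries were not analysed here. Per the study's methods and the submitters' processing notes, reads were trimmed (Trimmomatic 0.39), mapped to mm10 (Bowtie2 2.4.5), freed of duplicates (SAMtools 1.13) and, library by library, given to MACS2 2.2.7.1 with the input of that library as control and a q-value limit of 0.01. How reads with several places in the genome were treated is not given in the sources used here. Fold enrichment, as deposited by the authors, is the ratio of the pileup at a summit to the local background. The deposited −log10 p and −log10 q values were used to rank and filter peaks, and the score deposited by the authors was not used. The summit is deposited as an offset from the peak start. The lists hold no read counts. The read totals that the study states were not used here, and list length (5608 to 42192 peaks) does not measure depth, so a fold can change with how deeply library and input were sequenced.

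Peaks were merged in pandas 2.3.3 where they overlapped by at least 1 bp, and positions are 1-based. The Fisher tests used scipy 1.17.1 and the fits limma 3.58.1 in R 4.3.3 with a trended prior variance, without a replicate block. The fit was tested on simulated data. Sequences were read from GRCm38, the assembly of mm10, and searched with blastn 2.17.0 (word size 16). Alternatives covered the q limit, list length, merging by summits within 100 bp, windows of 10 and 100 kb, scaling, blocks and libraries left out. Sites named are those called in at least 10 libraries, those nearest a start site of each gene, the strongest of each locus among sites in at least 3 libraries, and those called in all 6 libraries of one colon site and at most 1 of the other. Other sites were named after their values were seen. The genes, the lists and the tests were chosen with earlier results of these data known.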

Additional observations from a re-analysis of the deposited data

How the results depend on the processing

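The number of sites was 25 in lists of equal length and 41 to 77 under the other settings, with 58 as reported, and 48 to 57 with a replicate number left out. The number called in all libraries was 9 as reported and 6 to 11 otherwise (9 to 11 with a replicate number left out). Without sites that match another place at 95% identity, an alternative chosen after seeing the data, 43 sites and 8 called in all libraries were left. The Fisher tests with an unadjusted p under 0.05 numbered 3 as reported, 1 in lists of equal length, 5 with peaks merged by summits within 100 bp, and 1 to 3 with a replicate number left out. The share of sites with a motif was 44.8% as reported and 5.17% for TTTACGA alone. Sites within 3 kb of a start site numbered 9 with protein-coding transcripts only. Of 95 alternative limma results, 92 gave 0 sites of the set past the threshold and 3 gave 1 site, in each case the nearer Naip5 site between proximal and distal WENR-minus organoids: with the replicate block (adjusted p = 0.00668), with no centring (0.0273) and without proximal WENR-minus replicate 3 (0.0360). Leaving out 1 library thus gave 0 to 1 for that contrast and 0 for the others, with adjusted p-values of the Naip5 site from 0.00668 to 0.351 over all alternatives. With the replicate block, calls over all 2079 sites went from 121 to 274 and from 63 to 217 between colon sites in WENR-plus and WENR-minus medium, from 0 to 1 and to 35 between media in proximal and distal organoids, and stayed at 0 for the difference between media. With organoid line as a random block they numbered 32 between media in distal organoids. Quantile normalisation gave 51 and 30 calls between colon sites, and normal scores of the within-list percentile 119 and 2. Every call on normal scores was higher in proximal organoids. These scores were not centred, and their median difference over all 2079 sites was itself 0.57 in WENR-plus and 0.18 in WENR-minus medium. The direction of these calls is therefore not separate from that shift of whole lists. Same-numbered libraries of different groups deviated together with correlations of -0.01 to 0.57, over 0.1 in 13 of 18 pairs against 6 of 36 pairs of other numbers, and 8 of 12 libraries correlated best with one of their own number. The labels do not say that a number marks a mouse. Between the groups compared, all 3 pairs were over 0.1 only for proximal WENR-plus and WENR-minus (0.12, 0.40 and 0.57), where the block called 0 of the 9 sites. Whether the numbers mark the mice was left undecided, and the fit with the block is given beside the Naip5 result. The paper attributes the largest part of the variation in Cdx2 binding to the separate mice, and the main fit did not model the mouse. What sequencing depth limits could not be measured from the lists.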
